A study of Mus musculus with 17 samples.

Results

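The 10 genes described here encode receptors, a cytokine receptor chain, a chemokine and transcription factors of natural killer (NK) cells: Ncr1, Klrb1c, Klrk1, Klrc1, Klrd1, Klre1, Il2rb, Xcl1, Eomes and Tbx21. They were chosen by name among the 21931 genes of the deposited table, not by their values, and 10 of 10 passed the filter on low counts. RNA was sequenced from whole MC38 tumors, which grow from a mouse colon cancer cell line, in 9 control mice and 8 mice of the cryoablation group. WT C57BL/6J mice, 6 to 8 weeks old, received 500000 cells under the skin of each side. On day 7, when tumors measured 5 to 6 mm, a cryoprobe froze the tumor of one side in 2 cycles of 20 s in the cryoablation group. The opposite, unfrozen tumor was taken 5 days later. The controls carried the same tumors, and the labels name no sham procedure for them. All mice shared a single tumor line, so the values speak for this line in this host only.

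NK cells are cytotoxic lymphocytes that need no rearranged antigen receptor. They weigh signals from activating receptors, which recognise stress ligands and antibody-coated cells, against signals from inhibitory receptors, which recognise MHC class I molecules. IL-15, received through the chain encoded by Il2rb, keeps them alive, and the T-box factors Eomes and T-bet (Tbx21) direct their maturation. In tumors, NK cells can attract cross-presenting dendritic cells through the chemokine XCL1. Several of these genes are also used by activated CD8 T cells, by NKT cells and by innate lymphoid cells, so in a whole tumor the level of a gene is not a count of NK cells. In bulk tumors, fewer cells of a type and less RNA per cell cannot be told apart.

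The promoters of the genes that share a sequence element are shown first. RefSeq windows (GRCm38.p6) reaching from 250 bases before to 50 bases after the start were available for 8 of the 10 genes, without Klrd1 and Il2rb. They were searched on both strands for 4 short letter strings, each named for a family of factors that can bind it. The string TGTGGTT (RUNX) was found in 5 of the 10 windows of these genes, those of Ncr1 (both of 2), Klrk1, Klre1 (1 of 2) and Xcl1, against 5.27% of all 32851 windows. GGTGTGA (T-box) was found in 1 of the 10, of Xcl1, against 3.98% of all windows, and AGGAAGT (ETS) in 2, of Xcl1 and Tbx21, against 9.35%. TTCNNNGAA (STAT) was in 0 of the 10, against 8.3% of all windows. A match describes the letters only. The part before the start is given for the 4 genes with the RUNX string, 5′ to 3′ on the strand of the gene, with every match in capitals. It lies at chr7:4337465-4337714 (plus strand) for Ncr1, chr6:129623865-129624114 (minus) for Klrk1, chr6:129577963-129578212 (plus) for Klre1 and chr1:164935523-164935772 (minus) for Xcl1.
Ncr1: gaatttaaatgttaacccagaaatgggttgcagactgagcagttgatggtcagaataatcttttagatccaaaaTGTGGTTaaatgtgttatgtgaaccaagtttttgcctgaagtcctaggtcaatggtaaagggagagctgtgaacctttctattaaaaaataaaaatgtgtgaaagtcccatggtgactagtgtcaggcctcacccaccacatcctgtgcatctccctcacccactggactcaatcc
Klrk1: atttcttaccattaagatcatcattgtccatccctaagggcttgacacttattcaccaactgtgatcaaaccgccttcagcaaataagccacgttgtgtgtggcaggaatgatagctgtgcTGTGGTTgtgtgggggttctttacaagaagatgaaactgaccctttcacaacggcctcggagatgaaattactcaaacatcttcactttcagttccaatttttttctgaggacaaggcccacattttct
Klre1: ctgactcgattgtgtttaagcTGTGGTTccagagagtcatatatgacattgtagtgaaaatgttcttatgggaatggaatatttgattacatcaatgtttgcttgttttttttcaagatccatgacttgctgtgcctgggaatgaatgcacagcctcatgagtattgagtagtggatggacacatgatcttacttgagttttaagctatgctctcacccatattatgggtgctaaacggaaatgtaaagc
Xcl1: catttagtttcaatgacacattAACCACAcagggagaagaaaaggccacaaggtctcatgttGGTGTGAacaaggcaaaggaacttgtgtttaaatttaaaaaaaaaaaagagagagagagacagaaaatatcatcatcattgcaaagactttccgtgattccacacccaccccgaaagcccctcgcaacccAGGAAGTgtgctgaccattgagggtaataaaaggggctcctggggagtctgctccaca
The string began 176 bases before the start in Ncr1, 129 in Klrk1, 229 in Klre1 and, in reverse complement, 228 in Xcl1. In Xcl1 the T-box string followed at 188 and the ETS string at 58 bases before the start. No matches overlapped.

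Total counts ranged from 13524899 to 17898672 per tumor, and the lowest count of any of the 10 genes in any tumor was 4, so all of them were detected in 17 of 17 tumors. Levels are given as CPM (counts scaled to library size by TMM), and differences as the log2 fold change of cryoablation over control from edgeR's quasi-likelihood test, with p-values adjusted over 13005 genes. Cryoablation tumors 2, 4 and 5 stood apart from the rest. Genes with a listed length under 1000 bases took 4.37%, 4.46% and 4.90% of their counts, against 1.86% to 3.35% in the controls and 1.76% to 2.51% in the other cryoablation tumors. The summed level of 4 colon epithelial genes (Epcam, Krt8, Krt18, Cdh1) was 81.4 to 123 CPM in these 3 tumors and 15.4 to 65.4 CPM in the controls. Calls that were gained or lost without them are given with both values.

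At an unadjusted p under 0.05, 0 of the 10 genes differed between the groups, where 4.91% of all genes tested did. None passed the threshold of the study, an unadjusted p under 0.05 together with a log2 fold change beyond 1 in either direction, which 0.492% of all genes passed, and the smallest adjusted p of any gene in the table was 0.728. DESeq2 also called 0 of the 10, and 1024 of 17819 genes in all. With quality weights, limma voom called 1 of the 10 (Xcl1), and 1312 of 13005 genes in all. An exact permutation test of log2 CPM, given beside each edgeR result, called 0 of the 10. The fold changes of 8 of the 10 genes were below 0, as were 52% of all genes, and their median was -0.21, against -0.0088 over all genes. Without control tumor 4 the median of the 10 was 0.0148. Without cryoablation tumors 2, 4 and 5, 10 of 10 were below 0 with a median of -0.40. These counts describe genes that share cells and tumors and are not independent of one another.

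**Figure D1:**
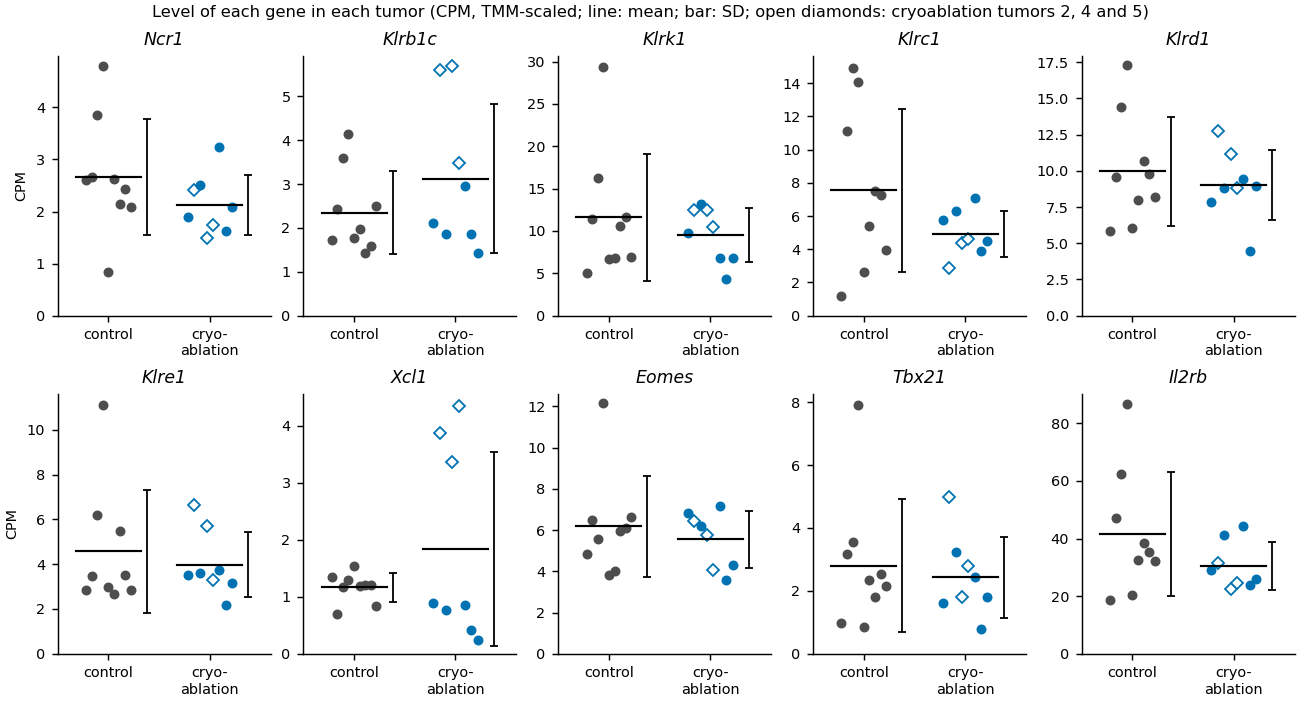
Level of each of the 10 genes (vertical axis, CPM) in 9 control and 8 cryoablation tumors, 1 point per tumor, with the mean (line) and SD (bar) of each group. Open diamonds mark cryoablation tumors 2, 4 and 5. The ranges of the groups overlap for every gene shown, and the 3 diamonds lie above all controls in the Xcl1 panel only.

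Ncr1 (ENSMUSG00000062524, listed on chromosome 7 from 4340723 to 4348163) encodes NKp46, the activating receptor that marks NK cells and some innate lymphoid cells in mice most closely. In control tumors it ranged from 0.843 to 4.79 CPM with a median of 2.61. In cryoablation tumors it ranged from 1.48 to 3.24 CPM with a median of 1.99. Control tumor 5, with 11 counts, was the lowest and control tumors 3 and 4 were the highest, so that the controls enclosed the cryoablation tumors, of which 7 of 8 were below the control median. The log2 fold change was -0.33 (SE 0.26, adjusted p = 0.738, exact permutation p = 0.385), within the spread between tumors. When control tumor 5 was left out, the difference in log2 CPM was -0.41 with an exact permutation p of 0.0446. The edgeR fold change was then -0.44 and did not pass (unadjusted p = 0.0567, adjusted p = 0.499). Without control tumor 4 the edgeR fold change was -0.19 (adjusted p = 0.847).

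Klrb1c (ENSMUSG00000030325, chromosome 6, 128755448 to 128766178) encodes NK1.1, the surface antigen by which NK cells of C57BL/6 mice are usually sorted. It ranged from 1.42 to 4.14 CPM in controls (median 1.97) and from 1.43 to 5.70 CPM in cryoablation tumors (median 2.53). Cryoablation tumors 2 and 4, at 5.60 and 5.70 CPM, were above every control, while the 5 cryoablation tumors other than 2, 4 and 5 ran from 1.43 to 2.96 CPM, inside the control range. The fold change on the log2 scale was 0.40 (SE 0.31, adjusted p = 0.737, exact permutation p = 0.304). It was -0.21 (adjusted p = 0.941) without the 3 tumors that stood apart, so its sign rested on them.

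Klrk1 (ENSMUSG00000030149, chromosome 6, 129587286 to 129600827) encodes NKG2D, the activating receptor for stress ligands of the RAE-1, H60 and MULT1 families, which CD8 T cells also carry. Control tumors ran from 5.08 to 29.4 CPM (median 10.6) and cryoablation tumors from 4.34 to 13.2 CPM (median 10.1). The medians were close, and control tumor 4 alone was far above the rest. Its log2 fold change was -0.29 (SE 0.32, adjusted p = 0.772, exact permutation p = 0.628) and 0.0054 (adjusted p = 0.995) without control tumor 4, so the negative value rested on that tumor.

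Klrc1, Klrd1 and Klre1 encode lectin-like receptor chains that lie beside Klrk1 in the NK gene complex of chromosome 6. Klrd1 (ENSMUSG00000030165, 129568745 to 129575738) encodes CD94, the shared chain that pairs with NKG2A, the inhibitory chain encoded by Klrc1 (ENSMUSG00000030167, 129642978 to 129655936), to read the nonclassical MHC molecule Qa-1. Klre1 (ENSMUSG00000050241, 129554868 to 129562790) encodes a related NK receptor chain that signals through partner chains. On the log2 scale Klrc1 had the widest range of the 10 genes in controls, from 1.19 to 14.9 CPM (median 7.28), while the cryoablation tumors lay within it, from 2.84 to 7.11 CPM (median 4.55). All 8 cryoablation tumors were below the control median, and the lowest tumor of all was control tumor 1, with 16 counts. The log2 fold change was -0.62 (SE 0.38, adjusted p = 0.728, exact permutation p = 0.489). Without control tumor 1 it was -0.76, which passed an unadjusted p under 0.05 (adjusted p = 0.478, exact permutation p = 0.108). Without control tumor 3 it was -0.44 (adjusted p = 0.89). Reads of Klrc1 may be divided with its near-identical neighbours by the counting: Klrc2, the activating partner of CD94, was at 1.78 ± 1.32 CPM in controls and 0.975 ± 0.496 CPM in cryoablation tumors (SD, n = 9 and 8, log2 fold change -0.86, exact permutation p = 0.157), and Klrc3 was below the filter.

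Klrd1 was steadier, from 5.83 to 17.3 CPM in controls (median 9.59) and from 4.46 to 12.7 CPM in cryoablation tumors (median 8.87). Its log2 fold change was -0.15 (SE 0.22, adjusted p = 0.815, exact permutation p = 0.642). It was -0.017 (adjusted p = 0.978) without control tumor 4 and -0.41 (adjusted p = 0.716) with offsets for gene length. Klre1 ran from 2.69 to 11.1 CPM (median 3.47) in controls and from 2.17 to 6.63 CPM (median 3.56) in cryoablation tumors, with a log2 fold change of -0.21 (SE 0.30, adjusted p = 0.81, exact permutation p = 0.725). In both genes control tumor 4 was the highest of all 17 tumors and cryoablation tumor 7 the lowest, and the ranges overlapped over most of their length. The Klre1 fold change was 0.07 (adjusted p = 0.925) without control tumor 4.

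Il2rb (ENSMUSG00000068227, chromosome 15, 78363456 to 78379471) encodes CD122, the shared beta chain of the IL-2 and IL-15 receptors, carried by NK cells and by activated and memory T cells. It was counted most of the 10 genes, from 18.6 to 86.7 CPM in controls (median 35.2) and from 22.6 to 44.3 CPM in cryoablation tumors (median 27.5). Control tumors 1 and 5 were the lowest and control tumors 3 and 4 the highest, and 6 of 8 cryoablation tumors were below the control median. The log2 fold change of -0.45 (SE 0.26, adjusted p = 0.728, exact permutation p = 0.255) had the smallest edgeR and exact p of the 10. Without control tumor 1 or control tumor 5 it was -0.54 and passed an unadjusted p under 0.05 (adjusted p = 0.478 and 0.499, exact permutation p = 0.103 and 0.126), while no fit that left out another tumor did. Without control tumor 4 the fold change was -0.24 (adjusted p = 0.844).

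Eomes (ENSMUSG00000032446, chromosome 9, 118307280 to 118315200) encodes Eomesodermin, the T-box factor of conventional NK cells and some CD8 T cells. It ran from 3.83 to 12.2 CPM in controls (median 5.97) and from 3.56 to 7.17 CPM in cryoablation tumors (median 6.00). Control tumor 4, at 12.2 CPM, was the only tumor above 7.17 CPM. The log2 fold change was -0.15 (SE 0.22, adjusted p = 0.807, exact permutation p = 0.607) and 0.02 (adjusted p = 0.964) without that tumor. Tbx21 (ENSMUSG00000001444, chromosome 11, 96988897 to 97006157) encodes T-bet, the T-box factor that NK cells share with Th1 and effector CD8 T cells. It ran from 0.843 to 7.89 CPM in controls (median 2.33) and from 0.783 to 4.99 CPM in cryoablation tumors (median 2.12). Control tumor 4 was again the highest and cryoablation tumor 7 the lowest, and the log2 fold change was -0.22 (SE 0.40, adjusted p = 0.842, exact permutation p = 0.837). It was 0.14 (adjusted p = 0.895) without control tumor 4.

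**Figure D2:**
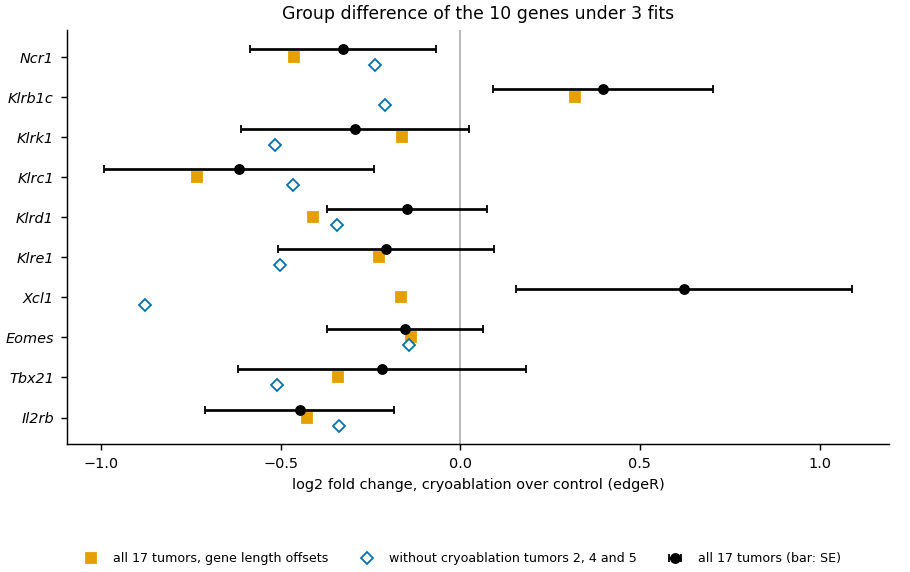
Log2 fold change of cryoablation over control (horizontal axis, edgeR) for each of the 10 genes over all 17 tumors (circles, bar: SE), over all 17 tumors with offsets for gene length (squares), and without cryoablation tumors 2, 4 and 5 (diamonds). The circles of Klrb1c and Xcl1 lie above 0, at 0.40 and 0.62, and without the 3 tumors all 10 values lie below 0.

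Xcl1 (ENSMUSG00000026573, chromosome 1, 164759213 to 164763096) encodes lymphotactin, the chemokine that NK cells and CD8 T cells release to draw dendritic cells with the receptor XCR1. It had the shortest listed length of the 10 genes, 523 bases, and the lowest counts. In controls its counts ran from 12 to 23, or 0.694 to 1.53 CPM (median 1.21). In cryoablation tumors 2, 4 and 5 the counts were 45, 43 and 45, or 3.87, 3.36 and 4.34 CPM, and in the other 5 they were 4 to 15, or 0.239 to 0.881 CPM. The cryoablation tumors thus fell into a high set of 3 and a low set of 5, with the controls between them and overlapping the low set. The log2 fold change was 0.62 (SE 0.47, adjusted p = 0.734), and the exact permutation test on log2 CPM gave a difference of 0.09 (p = 0.853).

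The direction of Xcl1 depended on the fit. With offsets for gene length the log2 fold change was -0.17 (adjusted p = 0.845). With quality weights in limma voom it was -0.73 (adjusted p = 0.489), and without cryoablation tumors 2, 4 and 5 it was -0.88 (adjusted p = 0.941), and both passed an unadjusted p under 0.05. The exact permutation test without these tumors gave -0.84 (p = 0.0045). These 3 tumors are also the 3 highest in Xcl1, so leaving them out lowers the group by construction, and in that fit 325 of 13250 genes had a p under 0.05 and 0 had an adjusted p under 0.05. Within the 9 controls, log2 CPM of Xcl1 against the share of counts on short genes gave r = 0.586 (permutation p = 0.0707) and rho = 0.767 (p = 0.0214), with an adjusted p of r of 0.145 over the 10 genes. Across the 14 tumors other than cryoablation 2, 4 and 5, r was 0.332 (permutation p = 0.24) and rho was 0.451 (p = 0.107). No value is given over all 17 tumors, because the 3 tumors form a separate cluster. The part of the short-gene share in the Xcl1 levels was not tested beyond these values. Xcr1, the gene of the receptor, was at 1.82 ± 0.878 CPM in controls and 2.31 ± 0.816 CPM in cryoablation tumors (log2 fold change 0.33, exact permutation p = 0.223).

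**Figure D3:**
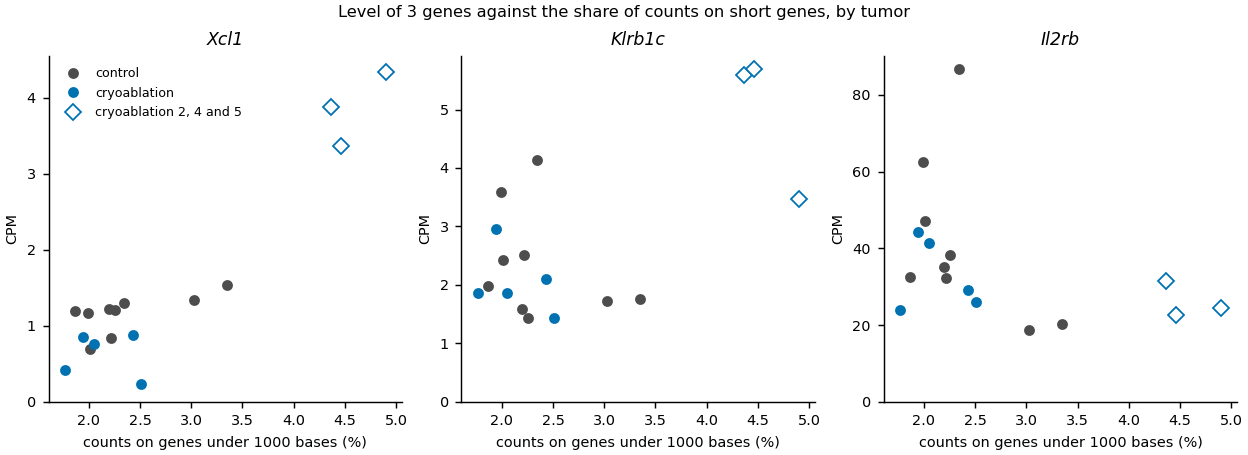
CPM of Xcl1, Klrb1c and Il2rb (vertical axes) against the percent of counts on genes under 1000 bases (horizontal axes), 1 point per tumor. Cryoablation tumors 2, 4 and 5 (open diamonds) lie to the right of all others. They are the highest in Xcl1, at 3.36 to 4.34 CPM, while in Il2rb they lie among the lower tumors, at 22.6 to 31.4 CPM.

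Levels between genes were compared per length, with the deposited FPKM. The order of the means over 17 tumors was Il2rb (8.67 ± 4.51), Klrd1 (7.49 ± 2.67), Klrc1, Xcl1, Ncr1, Klrk1, Eomes, Klre1, Tbx21 and Klrb1c (SD, n = 17). Of the 9 pairs of neighbours in this order, only Klrd1 and Klrc1 were in that order in 17 of 17 tumors, with a median log2 ratio of 1.14 FPKM. The other pairs kept their order in 8 to 12 of 17 tumors, so Il2rb and Klrd1, and the genes from Klrc1 down to Klrb1c, did not differ from their neighbours beyond the spread between tumors. The Klrc1 level may be too low where its reads were divided with its neighbours. The FPKM rest on the listed lengths, which reach 7183 bases for Klrk1.

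**Figure D4:**
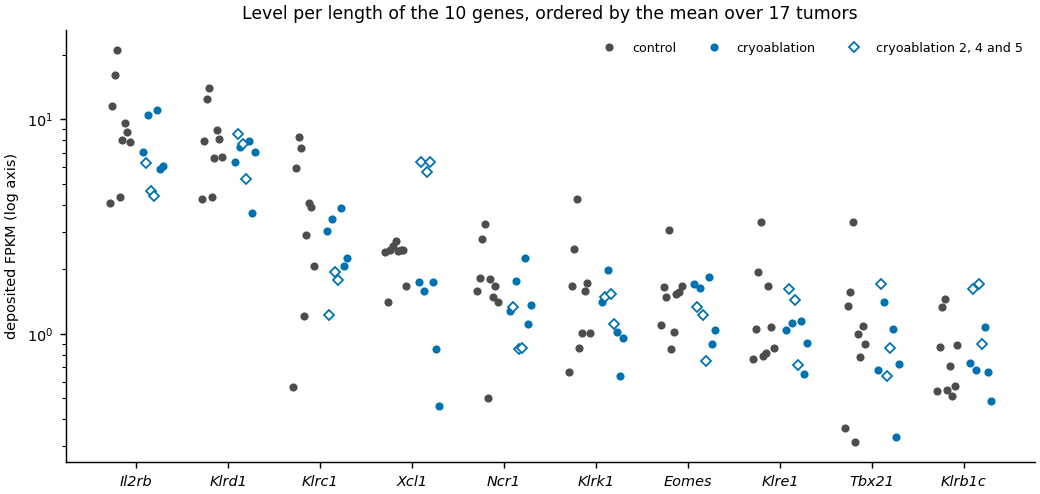
Deposited FPKM (vertical log axis) of the 10 genes in 17 tumors, ordered by the mean over all tumors. Neighbouring genes overlap widely, and Il2rb and Klrd1 lie above most values of the other genes, apart from Xcl1 in cryoablation tumors 2, 4 and 5 (open diamonds).

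Whole tumors differ in how many leukocytes they hold, so each gene was also set against Ptprc, which encodes the leukocyte antigen CD45. The listed length of Ptprc is 18313 bases, against 523 to 7183 for the 10 genes. In cryoablation tumors 2, 4 and 5 levels fell with gene length. Their log2 CPM slopes per doubling of length were -0.30, -0.27 and -0.39, against -0.17 to 0.23 in the other tumors. The part of gene length in the values relative to Ptprc was not tested. Ptprc itself ran from 30.0 to 209 CPM in controls and from 29.6 to 113 CPM in cryoablation tumors (difference in log2 CPM -0.41, exact permutation p = 0.266). Relative to Ptprc, 0 of the 10 genes had an exact p under 0.05. The differences were all above 0, from 0.08 for Il2rb (exact permutation p = 0.603) to 0.73 for Klrb1c (p = 0.106). Subtracting Ptprc, itself at -0.41, raises every difference by the same amount. No gene of the 10 was below -0.33 in log2 CPM on its own, so the shared sign follows from Ptprc. For Klrb1c, Klrk1, Klrd1, Klre1 and Xcl1, cryoablation tumors 2, 4 and 5 were above every control relative to Ptprc. For Tbx21 they were cryoablation tumors 2, 5 and 8, with tumor 8 at -4.695 against -4.702 in control tumor 4. In cryoablation tumors 2, 4 and 5 Ptprc was at 29.6 to 54.7 CPM, and without them 9 of the 10 differences were below 0, with Eomes at 0.0013 (exact permutation p = 0.996).

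The balance between members of the group was compared in the same way. Klrc1 minus Klrk1, the inhibitory against the activating receptor, was -0.75 ± 0.62 in controls and -0.90 ± 0.70 in cryoablation tumors on the log2 CPM scale (SD, n = 9 and 8, exact permutation p = 0.655). Klrd1 minus Klrc1 differed by 0.20 between the groups (exact permutation p = 0.556). Tbx21 minus Eomes, the balance of the T-box factors, was -1.30 ± 0.59 and -1.27 ± 0.63 (n = 9 and 8, exact permutation p = 0.921). Ncr1 minus Cd3e, the NK gene against the T cell receptor chain CD3 epsilon, differed by -0.01 (exact permutation p = 0.964). For the 4 balances the groups overlapped over most of their range.

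Most of the variation lay between tumors of the same group. Control tumor 4 was the highest of all 17 tumors in 7 of the 10 genes (Ncr1, Klrk1, Klrd1, Klre1, Eomes, Tbx21 and Il2rb), and control tumors 1 and 5 were the lowest controls in 4 and 3 genes. Cryoablation tumor 7 was the lowest of all tumors in 5 genes (Klrk1, Klrd1, Klre1, Eomes and Tbx21). Control tumors 1 and 5 had the highest share of counts on short genes among the controls, 3.02% and 3.35%. Whether this share bears on their low levels was not tested beyond the correlations within the controls, which for the genes other than Xcl1 ran from -0.726 (Klrc1) to -0.216 (Klre1), with 0 of 10 at an adjusted p under 0.05.

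**Figure D5:**
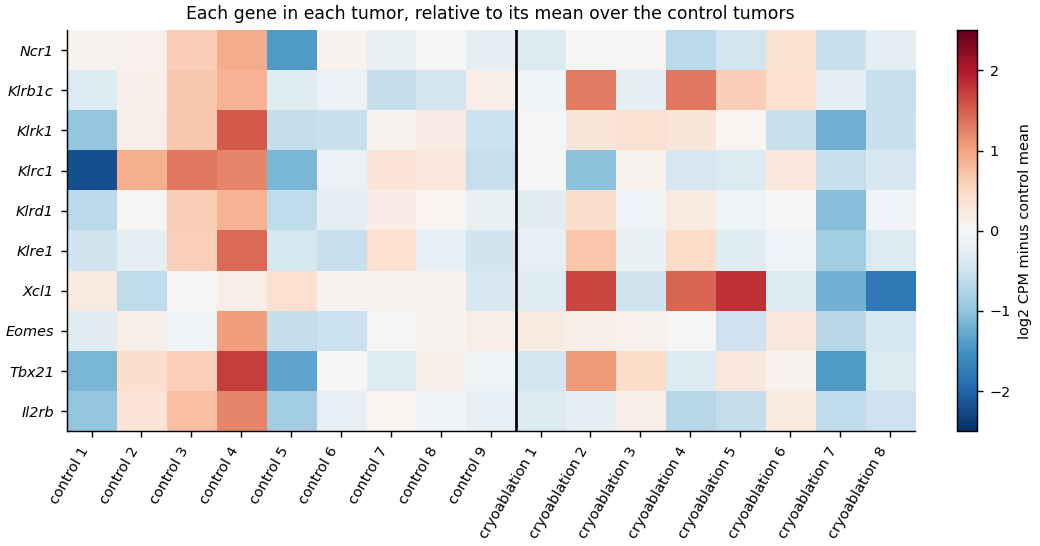
Log2 CPM of each gene (rows) in each tumor (columns) minus the mean of that gene over the 9 controls (color, red higher and blue lower). Values run from -2.20 to 1.82. Control tumor 4 is red in nearly every row and cryoablation tumor 7 blue in most, while Xcl1 is red in cryoablation tumors 2, 4 and 5 and follows another pattern than the other rows.

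The levels of most of the 10 genes were related across tumors. Over the 45 pairs, Pearson's r of log2 CPM over 17 tumors ran from -0.193 (Klrc1 with Xcl1) to 0.90 (Klrd1 with Klre1), with a median of 0.634, and 30 of 45 had an adjusted permutation p under 0.05. Klrd1 with Klre1 gave rho = 0.902 (permutation p = 2e-05) and kept r = 0.86 without the pair of tumors farthest from the median, 0.90 within controls and 0.907 within cryoablation tumors. The median r was 0.752 within controls and 0.53 within cryoablation tumors. Without cryoablation tumors 2, 4 and 5 the median was 0.741 and 36 of 45 had an adjusted p under 0.05. How often other genes reach such a p was not measured, here or for the relations with Ncr1 and Cd3e below. The counts therefore do not set the 10 genes apart from other genes. The 9 pairs of Xcl1 with the others had a median r of 0.27, and of -0.214 within controls. Over 17 tumors Klrb1c was weakly related to Klrc1 (r = 0.17), Ncr1 (0.229) and Il2rb (0.264), with -0.428, -0.114 and -0.143 within cryoablation tumors. Within controls these pairs gave 0.59, 0.653 and 0.777, and without cryoablation tumors 2, 4 and 5 they gave 0.585, 0.653 and 0.762. The highest r of Klrb1c over 17 tumors was with Xcl1 (0.663, permutation p = 0.0037), and this was 0.237 without cryoablation tumors 2, 4 and 5 and -0.21 within controls. Of the genes with the RUNX string, Klrk1 and Klre1 gave r = 0.874 (permutation p = 1e-05, the smallest that the permutations can give). Xcl1 gave 0.349 with Klrk1 and 0.401 with Klre1 (permutation p = 0.169 and 0.112). Ncr1 gave 0.515 with Klrk1, 0.511 with Klre1 and -0.143 with Xcl1 (permutation p = 0.0366, 0.0393 and 0.583). Pairs in which a gene lacked the string or had no window reached as high, such as Klrk1 with Klrd1 (0.892) and Klrc1 with Il2rb (0.878).

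With Ncr1, the gene closest to NK cells, Il2rb had the highest r of the other 9 genes (0.809, permutation p = 8e-05, adjusted p = 0.00072, rho = 0.789), followed by Tbx21 (0.72, permutation p = 0.00155). The adjusted p was under 0.05 for 5 of the 9, for 0 of 9 within controls and for 1 of 9 within cryoablation tumors. The median r of the 9 was 0.576 over all tumors, 0.665 within controls and 0.323 within cryoablation tumors. The calls lost within controls, where fewer tumors enter, thus did not come with a lower median r. Without control tumors 4 and 5, which lay farthest from the median of Ncr1, the range of Ncr1 is narrower by construction, and the adjusted p was under 0.05 for 1 of the 9, Il2rb (r = 0.726), with r = 0.465 for Tbx21 and 0.388 for Klrc1. Without cryoablation tumors 2, 4 and 5 it was under 0.05 for 8 of the 9, with Xcl1 at r = 0.107.

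Of the 10 genes, Tbx21 followed Cd3e most (r = 0.946, permutation p = 1e-05, the smallest that the permutations can give, rho = 0.904), with r = 0.952 within controls, 0.952 within cryoablation tumors, 0.938 without cryoablation tumors 2, 4 and 5 and 0.898 without control tumor 4 and cryoablation tumor 7. Klrd1 (r = 0.879) and Klrk1 (0.837) came next, and Xcl1 was last (0.323, permutation p = 0.208). The adjusted p was under 0.05 for 9 of 10 genes, for 9 of 10 within controls for 1 of 10, Tbx21, within cryoablation tumors and for 8 of 10 without cryoablation tumors 2, 4 and 5. Without control tumor 4 and cryoablation tumor 7 it was under 0.05 for 3 of 10, Klrk1, Klrd1 and Tbx21.

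Among 12967 other genes that averaged 10 counts or more, those whose levels followed each member most closely over the 17 tumors were named by Spearman's rho. For Ncr1 they were Wdfy4 (0.89), Vav3 (0.873) and Sidt1 (0.836), for Il2rb the integrin genes Itga4 (0.968) and Itgal (0.961) and Nlrp1b (0.949), and for Klrk1 Gimap3 (0.961), Neurl3 (0.953) and the monocyte gene Ly6c2 (0.951). For Klrc1 they were Niban1 (0.909), Sema4d (0.902) and Ifi208 (0.895), for Klrd1 Socs1 (0.89), Irf1 (0.88) and Ly9 (0.877), and for Klre1 Fuca2 (0.912), Fli1 (0.897) and Lcp1 (0.887). For Tbx21 they were Irf8 (0.922), Slamf8 (0.922) and Cd3e (0.904), and for Eomes Eml5 (0.809), Lair1 (0.809) and Cysltr1 (0.772). Klrb1c was followed by Alkbh1 (0.853), Itgb1bp2 (0.824) and Stard5 (0.765), and Xcl1 by Gfer (0.917), Cbr3 (0.907) and Spns3 (0.902). These are the highest of many values and carry no p.

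The wider NK pathway was described from fixed lists. Among 10 activating receptors and adaptors, 1 had an unadjusted edgeR p under 0.05, the measure used for every list: Sh2d1b1, which encodes the signalling adaptor EAT-2, at 1.86 ± 0.329 CPM in controls and 2.98 ± 1.18 CPM in cryoablation tumors (log2 fold change 0.67, adjusted p = 0.728, exact permutation p = 0.0147). Its fold change was 0.34 (exact permutation p = 0.145) without cryoablation tumors 2, 4 and 5. Over all genes, 3.74% were higher at an unadjusted edgeR p under 0.05. The Fc receptor gene Fcgr3 was the most abundant of that list (log2 fold change -0.07, exact permutation p = 0.61). Among 14 tested inhibitory and Ly49 receptors, Tigit, the receptor for PVR that restrains NK and T cells, was lower at an unadjusted edgeR p under 0.05 (3.83 ± 2.08 against 2.23 ± 0.849 CPM, log2 fold change -0.78, adjusted p = 0.728, exact permutation p = 0.0252), and -0.64 (exact permutation p = 0.132) without the 3 tumors. Over all genes, 1.17% were lower at that p. Ly49 genes are near-identical copies, so the level of each, including the most abundant, Klra4 (0.24, exact permutation p = 0.16), is uncertain.

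Of 8 tested ligands of these receptors, 0 had a p under 0.05. H2-T23, which encodes the Qa-1 molecule read by CD94 and NKG2A, was the most abundant (192 ± 69.2 and 191 ± 63.6 CPM, log2 fold change -0.01, exact permutation p = 0.998), and Clec2d, the ligand of an NKR-P1 receptor, had the largest change (0.38, p = 0.361; -0.31 without cryoablation tumors 2, 4 and 5). The NKG2D ligand genes were all below 0 in log2 fold change, Raet1d at -0.26 (exact permutation p = 0.0554), Raet1e at -0.15 (p = 0.189) and Ulbp1 at -0.16 (p = 0.22; 0.07 without cryoablation tumors 2, 4 and 5), while H60b and H60c reached at most 5 and 1 counts. Of 9 tested transcription factors, 0 had a p under 0.05, among them the abundant Zeb2 (-0.09, exact permutation p = 0.55) and Gata3 (0.30, p = 0.225).

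Of 13 cytokine and cytokine receptor genes, 3 were lower at an unadjusted p under 0.05 and 0 were higher, against 1.17% and 3.74% of all genes. The split over all genes changed with the fit: 76.2% of the calls were higher in the edgeR fit, 46.9% in limma voom with quality weights and 52.9% without cryoablation tumors 2, 4 and 5. They were Il12rb2, the signalling chain of the IL-12 receptor (1.17 ± 0.831 against 0.461 ± 0.391 CPM, log2 fold change -1.26, exact permutation p = 0.0676), Il21r (15.8 ± 10.4 against 9.64 ± 3.02 CPM, -0.71, p = 0.0617) and Stat5a, which carries IL-2 and IL-15 signals (19.2 ± 2.92 against 15.8 ± 3.01 CPM, -0.28, p = 0.027). Each had an adjusted p of 0.728, and without cryoablation tumors 2, 4 and 5 the values were -0.80 (exact permutation p = 0.431), -0.64 (p = 0.204) and -0.13 (p = 0.293). Il15, the survival factor of NK cells, was at 19.8 ± 4.70 and 21.0 ± 2.93 CPM (log2 fold change 0.08, exact permutation p = 0.473). Of 8 tested chemokine genes, 0 had a p under 0.05, with Cxcr3 furthest from 0 (-0.82, exact permutation p = 0.0782). Ccl5, a chemokine of NK and T cells, was at -0.29 (exact permutation p = 0.713), and at -1.22 without cryoablation tumors 2, 4 and 5, where it passed an unadjusted edgeR p under 0.05 (exact permutation p = 0.138). Of 9 effector genes, only Serpinb9, the inhibitor that shields killer cells from granzyme B, had a p under 0.05 (57.5 ± 13.4 against 45.8 ± 10.3 CPM, log2 fold change -0.33, exact permutation p = 0.0607), where 1.17% of all genes were lower at that p. Its fold change was -0.24 (exact permutation p = 0.245) without cryoablation tumors 2, 4 and 5. Ifng, which encodes interferon gamma, was then at -1.33 (adjusted p = 0.941, exact permutation p = 0.00899), against -0.34 (exact permutation p = 0.24) over all tumors. It had an unadjusted edgeR p under 0.05 without the 3 tumors and not over all 17. Gzmb, the granzyme itself, was at a mean of 71.7 and 71.6 CPM (log2 fold change -0.0027, exact permutation p = 0.883), and Tnfsf10 had the largest change (-0.79, p = 0.0935).

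Markers of other cell types that a whole tumor holds were measured beside these genes, and their part in the results was not tested. The 9 measured T cell genes summed to 22.9 to 124 CPM in controls and 20.1 to 96.2 CPM in cryoablation tumors, and 0 of 9 had a p under 0.05, with a median log2 fold change of -0.29. Without cryoablation tumors 2, 4 and 5 the median was -0.63 and 9 of 9 were below 0. Cd3d (-1.01, exact permutation p = 0.012; 0.12 over all tumors) and Cd5 (-0.88, exact permutation p = 0.048; -0.57 over all tumors) then passed an unadjusted edgeR p under 0.05. The 5 genes of tissue-resident lymphocytes summed to 20.8 to 82.8 and 28.0 to 51.2 CPM (0 of 5), and 5 B cell genes to 1.26 to 10.4 and 0.298 to 5.02 CPM, with Ms4a1 and Cd79a among those below the filter. Macrophage and monocyte genes summed to 337 to 1147 and 331 to 523 CPM, with Adgre1 lower at an unadjusted edgeR p under 0.05 (log2 fold change -0.69, exact permutation p = 0.0465) and 4 of 5 without a p under 0.05. It was at -0.64 without cryoablation tumors 2, 4 and 5 (exact permutation p = 0.236). At that unadjusted p, 1.17% of all genes were lower. Dendritic cell genes summed to 30.2 to 87.6 and 28.7 to 68.1 CPM (0 of 5). Of the 3 neutrophil genes tested, S100a8 (log2 fold change 1.34, exact permutation p = 0.0554) and S100a9 (1.61, p = 0.127) were higher at an unadjusted edgeR p under 0.05, as were 3.74% of all genes. Neither passed without cryoablation tumors 2, 4 and 5 (0.99, exact permutation p = 0.268, and 1.40, p = 0.475), while Ly6g and Cxcr2 were below the filter, and the list summed to 6.35 to 57.7 and 6.86 to 53.8 CPM.

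Of the markers of cells other than leukocytes, fibroblast genes summed to 6469 to 10297 and 3954 to 9059 CPM, endothelial genes to 62.2 to 148 and 51.9 to 108 CPM, and genes of skin and muscle to 180 to 440 and 202 to 656 CPM, with 0 calls at a p under 0.05 in the 3 lists. The 4 colon epithelial genes summed to 15.4 to 65.4 CPM in controls and 9.28 to 123 CPM in cryoablation tumors (0 of 4). Each of these marker calls had an adjusted p of at least 0.728.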

How the data were processed

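RNA was measured in the unfrozen tumors of 9 control and 8 cryoablation mice, grouped by the deposited labels; the article's text gives the group sizes the other way round, and the labels were followed; if the groups were exchanged, every direction here would turn. The article also gives longer freezing cycles than the labels, whose duration is given. The authors deposited whole-number read counts per gene, which are not normalized, and FPKM, which equalled count over listed length and total count when checked. Libraries were made from mRNA captured with beads and sequenced on a NovaSeq platform; aligner, counting program and strandedness are not given in the sources used here. The labels name GRCm38 and mm10, but listed positions do not match that annotation, so no build is named for them. No pair of tumors had identical counts, and 0 value columns lacked a sample. Nothing says how the tumors were grouped into extractions, so p-values measure the spread between these tumors. Counting intervals cover counting error only: the lowest count, 4 for Xcl1 in cryoablation tumor 8, was 0.24 CPM of its unscaled total (95% Wilson interval 0.0933 to 0.617).

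Counts were tested with edgeR 4.0.16 in R 4.3.3 (TMM, filterByExpr by group, quasi-likelihood F test, group as the only term) over 13005 genes, with Benjamini-Hochberg adjustment; the SE is the log2 fold change over the square root of F. Exact permutation tests, two-sided, compared log2 CPM (prior count 2) over 24310 assignments, with a smallest possible p of 4.11e-05. Correlations used 100000 permutations, or all permutations within a single group, with adjustment within families of 9, 10, 45 and 10 relations. Alternatives were DESeq2 1.42.0, limma 3.58.1 voom with quality weights, upper-quartile scaling, 2 other filters, gene length offsets (a spline with 4 degrees of freedom), a prior count of 0.5, library totals without TMM, Cd3e in place of Ptprc, a replicate block and each tumor left out. The members and lists were chosen with earlier results of these data known. Leaving out cryoablation tumors 2, 4 and 5 was chosen from those earlier results for the fold changes and was added after seeing the data for the Ptprc, balance and correlation results. Fits were tested on simulated data. Named were all 10 members, list genes with p under 0.05 or else the most abundant and most changed gene of a list, and the 3 genes nearest to each member by rho, apart from items that are not reported here; Klrc2, Klrc3, Xcr1, Ifng, Ccl5, Cd3d, Cd5, Fcgr3, Klra4, Il15, Gzmb, Tnfsf10 and the NKG2D ligands were named beyond this rule, after their values were seen.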

Additional observations from a re-analysis of the deposited data

Results flagged for a closer look

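Dixon's test at its 95% critical value was run on 48 groups of values, and 5 single tumors lay far from the rest of their group; chance passes about 1 in 20 groups. Control tumor 5 was low in Ncr1, at -0.044 log2 CPM with the nearest control at 1.15. Cryoablation tumor 7 was low in Klrd1, at 2.20 log2 CPM, below the other tumors of its group. Control tumor 4 was high in Eomes, at 3.62 log2 CPM with the nearest control at 2.75. Relative to Ptprc, control tumor 1 was high in Ncr1, at -3.46 on the log2 scale with the nearest control at -4.60. On the same scale cryoablation tumor 5 was high in Klrc1, at -2.64 with the nearest tumor of its group at -3.43.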

How the results depend on the processing

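The lowest counts were 4 (Xcl1) and 11 (Ncr1, Tbx21), and a p that misses the threshold does not show equal levels. The fold changes of Ncr1, Klrc1, Klrd1 and Il2rb kept their sign in every edgeR, DESeq2 and limma fit. The cause of the changes below was not tested.

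Without cryoablation tumors 2, 4 and 5, signs turned for the edgeR fold changes of Klrb1c (-0.21) and Xcl1 (-0.88), for the log2 CPM differences of Klrb1c (-0.14) and Xcl1 (-0.84), relative to Ptprc for Ncr1 (-0.0355), Klrb1c (-0.0354), Klrk1 (-0.29), Klrc1 (-0.0285), Klrd1 (-0.19), Klre1 (-0.23), Xcl1 (-0.73), Tbx21 (-0.23) and Il2rb (-0.11), and for the balances Klrc1 minus Klrk1 (0.26), Klrd1 minus Klrc1 (-0.16), Tbx21 minus Eomes (-0.23) and Ncr1 minus Cd3e (0.41). Of the 10 genes, 1 (Xcl1) then had an edgeR p under 0.05 and 1 an exact p under 0.05, and 8 of 9 relations with Ncr1 had an adjusted p under 0.05. Xcl1 also turned with gene length offsets (-0.17), with limma voom and quality weights (-0.73, the 1 gene of the 10 with a p under 0.05 there) and with library totals in place of TMM (-0.0057). Relative to Cd3e in place of Ptprc, Ncr1 (-0.0138), Klrc1 (-0.0879) and Il2rb (-0.11) turned. Without the pair of tumors farthest from the median, 1 of 9 relations with Ncr1 and 3 of 10 with Cd3e had an adjusted p under 0.05.

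Leaving out single tumors gave 0 to 2 genes with an edgeR p under 0.05, 0 to 1 with an exact p under 0.05, 0 to 1 relative to Ptprc (Klrb1c without cryoablation tumor 3, 0.94, exact permutation p = 0.0363), and a median log2 fold change from -0.35 to 0.0148 (without control tumor 4). The edgeR fold changes then ran from -0.39 to 0.0054 for Klrk1, -0.35 to 0.0672 for Klre1, -0.23 to 0.0242 for Eomes and -0.45 to 0.14 for Tbx21. The log2 CPM differences ran from -0.29 to 0.0253 for Klrk1, -0.20 to 0.0231 for Klrd1, -0.22 to 0.0709 for Klre1, -0.15 to 0.36 for Xcl1, -0.19 to 0.015 for Eomes and -0.25 to 0.13 for Tbx21. Relative to Ptprc, Klrc1 ran from -0.0323 to 0.18 and Il2rb from -0.0205 to 0.15. The balances ran from -0.30 to 0.0253 (Klrc1 minus Klrk1), -0.10 to 0.14 (Tbx21 minus Eomes) and -0.14 to 0.12 (Ncr1 minus Cd3e).

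The labels give both groups replicate numbers 1 to 8, but the numbers did not pair the tumors: the correlation of deviations from the group means over same-numbered pairs ran from -0.51 to 0.642, 4 of 8 were over 0.1, and 2 of 8 cryoablation tumors were closest to their own number. With a replicate block the median log2 fold change of the 10 genes was -0.17, 0 had a p under 0.05 and the Xcl1 fold change was 0.09. Of the calls over all genes, 45.6% were higher with the block and 76.2% without it. Over all genes, 639 had a p under 0.05 in the edgeR fit, 992 with no filter, 1024 in DESeq2, 1312 in limma voom, 325 without the 3 tumors and 252 to 1388 when single tumors were left out.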
